A study of Mus musculus with 3 samples.

Results

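Replication-dependent histone genes encode the histones that a cell makes in bulk while it copies its DNA. They were taken by symbol: H1f1 to H1f5, and every gene whose symbol starts with H2ac, H2bc, H3c or H4c followed by a number, pseudogenes left out. The rule found 64 of the 56980 genes listed in the deposited tables: 5 linker histone H1 genes, 18 H2A, 17 H2B, 12 H3 and 12 H4 genes. Of these, 60 had at least 1 unique molecular identifier (UMI, which marks 1 captured RNA molecule) in the cells used, and H2ac1, H2ac19, H2bc1 and H3c14 had none. Mouse spleens were ground up and their single cells sequenced on the 10x Genomics platform, as 3 libraries with 1 per group. All mice were wild type. The library called control came from mice without irradiation, IR from mice given 8.5 Gy with a treatment labelled "colvent control", read here as a control vehicle, which is uncertain, and IR_HSO from mice given 8.5 Gy and HSO, hemp seed oil by the series title. Age, number of mice, time after irradiation and the dose and schedule of HSO are not given in the sources used here. IR against control addresses what goes with irradiation, and IR_HSO against IR what goes with HSO in irradiated animals. These 2 comparisons share the IR library.

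Histones H2A, H2B, H3 and H4 form the protein core around which DNA winds, and histone H1 binds the linker DNA between cores. The mRNAs of these genes are special: in place of a poly(A) tail most end just after a short stem-loop, which is bound by the stem-loop binding protein Slbp. They accumulate in S phase and are degraded when DNA synthesis stops. In cells that leave the cycle or differentiate, some of the same genes also give polyadenylated transcripts from sites further downstream. The labels name polyA RNA as the molecule sequenced.

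The stem-loop is shown because the members divide later by how much annotated transcript follows it. In 41 of the 63 members that have a coding transcript in GENCODE M21 (GRCm38), a stem-loop was found after the stop codon. The search used the histone stem-loop motif on the sense strand of each member's longest coding transcript. The motif was found anywhere in 1.98% of all 58797 protein-coding transcripts. Capitals mark the stem and small letters the loop, in DNA letters, 5′ to 3′. The first form was shared by 23 members, among them H1f4, H1f2, H1f3, H2ac24, H2ac8 and H2ac18. The second was found in 5 members, H3c3 and H3c7 among them, the third in 6, H4c4 and H4c8 among them, and the fourth in 2, H4c9 and H4c14.
H1f4 and H2ac24: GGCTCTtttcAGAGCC
H3c3 and H3c7: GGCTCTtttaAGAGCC
H4c4 and H4c8: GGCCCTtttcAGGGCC
H4c9 and H4c14: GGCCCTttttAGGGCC
The forms do not divide H1f4 from H2ac24, whose values ran in opposite directions. Promoters of both genes follow, since both carry much of the measured sum. They run from 250 bases before to 50 after the annotated start (RefSeq, GRCm38.p6), on the minus strand of chromosome 13: H1f4 at chr13:23622509-23622808 and H2ac24 at chr13:21833426-21833725. Capitals mark, on either strand, the CCAAT box, the TATA box (spelled TATAAA), the octamer of histone promoters (ATTTGCAT) and the H1 box (AAACACA).
H1f4: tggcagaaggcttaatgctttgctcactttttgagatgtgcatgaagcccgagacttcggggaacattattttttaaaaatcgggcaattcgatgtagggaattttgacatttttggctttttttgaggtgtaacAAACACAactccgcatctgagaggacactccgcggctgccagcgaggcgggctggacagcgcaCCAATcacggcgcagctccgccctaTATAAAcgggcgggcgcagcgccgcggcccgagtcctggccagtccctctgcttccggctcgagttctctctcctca
H2ac24: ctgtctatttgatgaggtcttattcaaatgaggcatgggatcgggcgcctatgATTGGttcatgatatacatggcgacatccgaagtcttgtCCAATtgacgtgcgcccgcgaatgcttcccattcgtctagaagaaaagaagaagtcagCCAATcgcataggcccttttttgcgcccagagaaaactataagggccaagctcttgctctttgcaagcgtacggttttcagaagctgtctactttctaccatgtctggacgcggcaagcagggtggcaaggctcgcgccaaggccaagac
H1f4 held 1 CCAAT box, 1 TATA box and 1 H1 box, and H2ac24 held 3 CCAAT boxes and none of the others. Promoters were matched for 57 members, with 58 starts. The CCAAT box was in 86.2% of them and in 37.4% of all 32851 promoters of this length, the TATA box in 58.6% and 13.6%, the octamer in 22.4% and 1.74%, and the H1 box in 13.8% and 7.18%. By class, the octamer was found in 6 of 17 H2A and 7 of 15 H2B promoters, the H1 box in 4 of 5 H1 promoters and the CCAAT box in 3 of 11 H4 promoters. Promoters of neighbouring H2A and H2B genes, such as H2ac8 and H2bc8, overlap, so the same octamer can count in both classes. In the 2 promoters shown no motifs overlap, and a match is a description of the letters only.

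Cells were gated on raw counts. A T cell had at least 2 UMIs of Cd3d, Cd3e and Cd3g together, an NK cell at least 1 UMI of Ncr1 and none of Cd3, and a B cell at least 2 UMIs of Cd79a and Cd79b. Cells with a UMI of Mki67 or Top2a, both made in dividing cells, are called cycling. In the order control, IR, IR_HSO the T gate held 3731, 8212 and 6982 cells, the NK gate 337, 1531 and 1046, and the B gate 4719, 444 and 321. Values are in CPM, the UMIs of a gene scaled to a library total of 1000000 UMIs in the gated cells. A gene counts as measured at a mean of at least 5 CPM over the 3 libraries of a gate, and as higher or lower past 1.5-fold on log2(CPM + 1). With 1 library per group there is no test, and the 95% intervals cover counting error only. All comparisons are between libraries.

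The gates did not hold the same cells in every library. The B gate was also passed by 541 of the control T-gate cells (14.5%), by 138 of those of IR (1.68%) and by 93 of those of IR_HSO (1.33%), and 6 B cell markers together stood at 1798, 277 and 199 CPM in the T gate. In the B gate the 6 plasma cell markers stood at 2284 CPM (control), 35763 (IR) and 31135 (IR_HSO), and 70 of 4719, 275 of 444 and 237 of 321 cells had at least 10 UMIs of Jchain, which joins antibody chains. After irradiation the B gate thus held mainly cells with plasma cell RNA. The 7 erythroid markers stood at 544, 4162 and 1218 CPM in the T, NK and B gates of control, and at most at 1.95 in any gate of the other libraries. Pancreatic acinar markers stood at 3.20, 3408 and 6118 CPM in the NK gate. IR_HSO had more barcodes at 10% or more mitochondrial UMIs, which were left out: 16.5%, against 3.75% in control and 4.76% in IR. Pairs of libraries shared 34 to 54 cell barcodes. Median UMIs per T cell were 5479 in control, 3587 in IR and 3569 in IR_HSO. Whether any of these set a result below was not tested, except where a value without such cells is given.

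Histone genes took a smaller share of T cell UMIs in IR_HSO than in IR. The summed level was 1294 CPM in control (95% interval 1279.7 to 1309), 1099 in IR (1088 to 1110.1) and 896 in IR_HSO (885 to 907). IR_HSO was 0.815 times IR (0.803 to 0.828). IR was 0.849 times control (0.836 to 0.862), but 1.02 times (up to 1.04) without the cells that also passed the B gate, where the levels were 1093, 1115 and 889 CPM. IR_HSO stayed below IR without those cells, at 0.798. So the control library was highest only with its B-gate cells included, and IR_HSO was lowest either way. Thinning every cell to 1000 UMIs gave 1.04 for IR against control and 0.759 for IR_HSO against IR. Within a gate, more cells with histone RNA and more histone RNA per cell cannot be told apart from a sum alone. Values for cycling and noncycling cells are given further on.

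**Figure D1:**
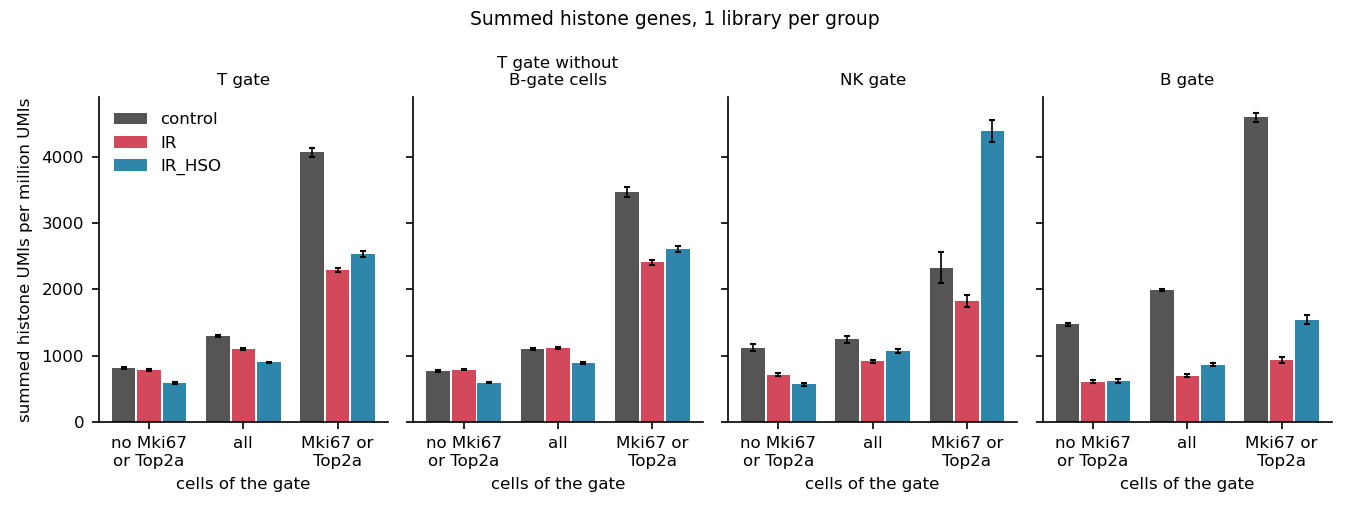
Summed level of the replication-dependent histone genes (CPM, vertical axis) in the T gate with and without B-gate cells and in the NK and B gates of the 3 libraries, for cells without Mki67 or Top2a, all cells and cells with either, with exact 95% intervals for counting error. The T gate stands at 1294, 1099 and 896 CPM in control, IR and IR_HSO, and the B gate at 1993 CPM in control and 692 in IR.

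By class, the T cell difference between IR_HSO and IR ran in opposite directions. H1 stood at 650.0, 631 and 339.7 CPM in control, IR and IR_HSO, and IR_HSO was 0.538 times IR (0.526 to 0.551). H2A stood at 343, 163 and 306 CPM, and IR_HSO was 1.87 times IR (1.81 to 1.94), or 1.12 times without H2ac24. IR was 0.476 times control for H2A, and 0.617 times without B-gate cells. IR was the low library for H2A, and IR_HSO the low one for H1. H3 was at 83.7, 79.9 and 79.2 CPM, a ratio of 0.992 (0.939 to 1.05), which differs by less than counting error. H2B (0.761) and H4 (0.763) were lower in IR_HSO but within 1.5-fold. The share of H1 among histone UMIs was 50.2% in control, 57.4% in IR and 37.9% in IR_HSO.

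Of the 27 members measured in T cells, 7 were higher and 10 lower in IR_HSO than in IR, against 5.39% higher and 4.26% lower among all 10081 genes measured. For IR against control, 0 were higher and 5 lower, against 9.84% and 3.01% of all genes. The 5 were H2ac24, H2ac8, H2ac4, H3c7 and H4c8, of which H2ac4 turned from -1.09 to 0.07 (log2) after thinning. For IR_HSO against control, 3 were higher and 13 lower, against 15.7% and 5.47%. The members' median log2 ratio was -0.34 for IR_HSO against IR, where that of all genes was 0.04, and -0.20 for IR against control, where that of all genes was 0.10. For IR against control without cells of several gates, 3 members were higher and 5 lower, and the shares of all genes were not counted there.

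T cells divided by co-receptor differed in the sum and not in the opposite directions of H1 and H2A. T cells with a UMI of Cd8a or Cd8b1, marks of killer T cells, stood at 1279.6, 1119 and 1235 CPM for control, IR and IR_HSO (1485, 953 and 865 cells), with IR_HSO 1.10 times IR (1.06 to 1.14). T cells with Cd4 and neither Cd8 gene, mostly helper cells, stood at 1374, 1214 and 876 CPM (1326, 2878 and 2727 cells), with IR_HSO 0.722 times IR (0.704 to 0.740). T cells with Foxp3, the master factor of regulatory T cells, stood at 1932, 958 and 819.6 CPM (246, 871 and 1551 cells), highest in control. The noncycling ones stood at 772, 703 and 619 CPM, with IR 0.910 times control (0.843 to 0.983). The cycling ones stood at 4375, 1769 and 1677 CPM (48, 131 and 202 cells). IR_HSO was thus below IR in cells with Cd4 and with Foxp3, and above it in cells with Cd8. In Cd8 cells without Mki67 or Top2a it was below, at 524 against 711 CPM, a ratio of 0.738 (0.696 to 0.782). Between IR_HSO and IR the H1 ratio was 0.648 in Cd8 cells, 0.492 in Cd4 cells and 0.583 in Foxp3 cells, and the H2A ratio 2.80, 1.48 and 1.92. Whether these subsets differ from each other was not tested.

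All 5 linker histone genes were lower in IR_HSO than in IR in T cells. H1f4 stood at 278, 259 and 147 CPM in the order control, IR, IR_HSO, and H1f2 at 184, 188 and 103. Both encode somatic H1 proteins, and over the whole T gate both were close in control and IR. IR_HSO was 0.567 times IR (0.547 to 0.588) for H1f4 and 0.544 times (0.521 to 0.568) for H1f2. H1f5 was at 119.8, 92.2 and 41.9 CPM, the lowest in IR_HSO. H1f3 was at 54.2, 80.1 and 41.4 CPM, the highest of the linker genes in IR against control, at 1.48 times (1.38 to 1.58), just short of the fold on the log2(CPM + 1) scale. H1f1 was at 14.0, 10.7 and 6.66 CPM. In noncycling T cells IR_HSO was 0.573 times IR for H1f4 and 0.534 times for H1f2, so the difference was as large without cells with Mki67 or Top2a. Without B-gate cells the 5 linker genes together stood at 562 CPM in control, 641 in IR and 337 in IR_HSO, so control was then below IR.

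The H2A gene H2ac24 moved the other way. It stood at 157 CPM in control, 47.7 in IR and 176 in IR_HSO. IR was the low library: it was 0.304 times control (0.287 to 0.323), and IR_HSO was 3.70 times IR (3.50 to 3.91). On the log2(CPM + 1) scale the difference of IR from control was -1.70, and -1.29 without cells of several gates. A long run of the H2ac24 promoter is identical in H2ac23. Whether reads of these genes can be told apart was not tested. H2ac8 followed the same order of IR below the others, at 85.4, 34.9 and 56.3 CPM. H2ac18, which cannot be told apart with certainty from its near-identical copy H2ac19, listed at 0, was at 18.2, 14.8 and 32.3 CPM. H2ac20 was at 26.7, 21.8 and 10.9 CPM, lower in IR_HSO, so not every H2A gene was higher. The remaining 2 measured H2A genes, H2ac6 and H2ac4, lay within 1.5-fold between IR_HSO and IR, and H2ac4 was at 16.7, 7.31 and 6.26 CPM.

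Among the H2B genes, H2bc6 stood at 20.7, 26.2 and 14.3 CPM and H2bc18 at 10.1, 12.9 and 5.39, both lowest in IR_HSO. H2bc24 was at 7.99, 6.80 and 12.9 CPM and highest there. It has near-identical copies, so its reads may be split among them. Among the H3 genes, H3c7 was at 16.1, 7.53 and 20.4 CPM and H3c11 at 6.24, 7.95 and 1.70, so that IR_HSO was the highest library for the former, at 2.70 times IR (2.34 to 3.13), and the lowest for the latter, at 0.213 times (0.155 to 0.288). H3c13, a near copy of H3c14 and H3c15, was at 4.41, 4.26 and 8.92 CPM. H3c1 was at 14.9, 20.0 and 17.0 CPM and H3c3 at 15.6, 17.3 and 13.4, within 1.5-fold throughout. Among the H4 genes, all of which encode the same core protein, H4c4 was at 46.4, 61.0 and 33.6 CPM and lowest in IR_HSO, H4c8 was at 18.4, 9.18 and 16.6 and lowest in IR, and H4c9 was at 21.8, 21.8 and 16.9.

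**Figure D2:**
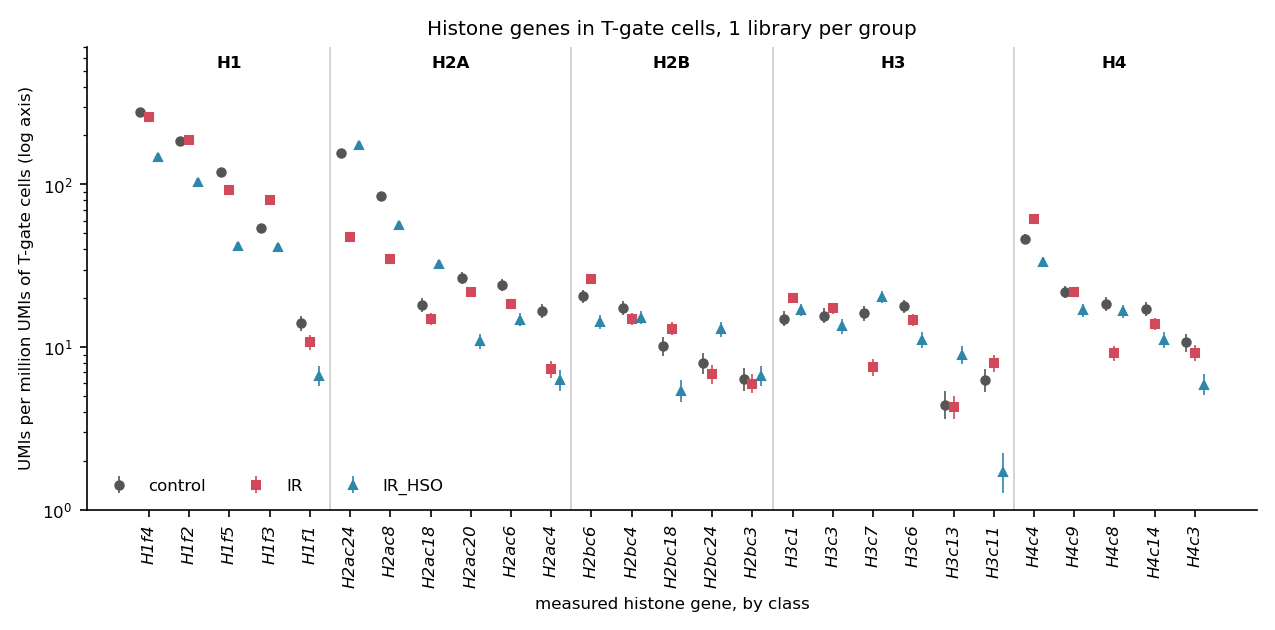
Level of the 27 members measured in T cells (CPM, log axis), grouped by class, with 1 point per library and exact 95% intervals for counting error. H2ac24 is lowest in IR at 47.7 CPM, while H1f4 is lowest in IR_HSO at 147 CPM.

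Over all NK cells the H1 and H2A sums ran in opposite directions, as in T cells. H1 stood at 555 CPM in IR and 432 in IR_HSO, and H2A at 119 and 349.8. None of the 5 H1 genes differed past the fold, and in cycling NK cells H1 was higher in IR_HSO, at 1337 against 917 CPM. The histone sum of NK cells went the other way from that of T cells. The sum was 1244 CPM in control (1189.7 to 1301), 912 in IR (886 to 938) and 1061 in IR_HSO (1031 to 1092). IR was 0.733 times control, and IR_HSO was 1.16 times IR (1.12 to 1.21). Without the cells that also passed the B gate these ratios were 0.855 and 1.12. Without Mki67 or Top2a the levels were 1116, 712 and 564 CPM, and IR_HSO was then the lowest library, at 0.793 times IR. The direction between IR_HSO and IR also turned without the cells with the highest doublet score (0.829), after thinning (0.834), and without the 10 cells of each library with the most histone UMIs (0.820). Few cells thus set this direction, and they are described further on.

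Of the 27 members measured in NK cells, 9 were higher and 1 lower in IR_HSO than in IR, against 5.85% and 5.22% of the 10076 genes measured. Without the cells of highest doublet score these counts were 6 and 6, and after thinning 6 and 9, so the excess of higher members did not hold. The shares of all genes were not counted under these settings. For IR against control 2 were higher and 6 lower, against 9.96% and 9.17%, and for IR_HSO against control 8 were higher and 6 lower, against 13.3% and 13.2%. The latter counts became 3 and 8 without the cells of highest doublet score, and 3 and 14 after thinning, again without shares of all genes. H2ac24 stood at 87.0 CPM in control, 35.2 in IR and 221 in IR_HSO, which was 6.28 times IR (5.35 to 7.40). Of its 985 UMIs in IR_HSO, 809 lay in 10 cells in which members made up at least 1% of all UMIs, and in noncycling NK cells the ratio was 3.50 (2.47 to 5.05). H2ac18 was at 21.7, 13.3 and 39.7 CPM and H4c8 at 20.5, 8.99 and 23.3, all 3 of these core histone genes being lowest in IR. H1f4 was at 467, 279 and 203 CPM, H1f2 at 181, 135 and 102, and H1f3 at 82.5, 60.2 and 43.1, each highest in control and lowest in IR_HSO. H1f5 was at 45.4, 75.6 and 74.7 CPM and differed between IR_HSO and IR by less than counting error. H4c4, the 1 lower gene, was at 49.2, 48.7 and 31.2 CPM. H3c3 was at 1.92, 9.57 and 21.1 CPM, and rested on 3 UMIs in control, so that its ratio of IR to control of 4.99 has an interval of 1.61 to 25.0.

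In the B gate the histone sum stood at 1993 CPM in control (1975 to 2011), 692 in IR (670.4 to 714) and 863 in IR_HSO (835 to 892). IR was 0.347 times control and IR_HSO was 1.25 times IR. Among B-gate cells with at least 10 Jchain UMIs the levels were 3419, 647 and 728 CPM, with IR 0.189 times control (0.181 to 0.198). In the noncycling ones of these they were 943, 592 and 609 CPM over 31, 217 and 192 cells, with IR 0.628 times control (0.565 to 0.699). IR was thus below control in each, by an amount that varied with the cells taken. Of the 28 members measured, 1 was higher and 20 lower in IR than in control, and 1 higher and 20 lower in IR_HSO than in control. Among all 9081 genes 6.14% were higher and 75.2% lower in IR, and 6.52% higher and 74.5% lower in IR_HSO. The members' median of -1.08 for IR against control stood near the -1.05 of all genes, so the lower count is close to that of genes in general in this gate. With plasma cell, ribosomal and similar genes taken out of the denominator the ratio of IR to control was 0.694.

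Between the irradiated libraries, 9 of the 28 members in the B gate were higher and 1 lower in IR_HSO, against 5.56% and 7.61% of all genes. H2ac24 stood at 228, 20.5 and 146 CPM in control, IR and IR_HSO, and H2ac18 at 27.5, 11.1 and 54.4, both lowest in IR. H1f4 was at 513, 160.0 and 121 CPM, H1f2 at 264, 141 and 116 and H1f3 at 108, 46.0 and 31.6, all lowest in IR_HSO. H1f5, at 222, 34.8 and 72.1 CPM, was higher in IR_HSO than in IR here, at 2.07 times (1.72 to 2.49), but 1.19 times in noncycling cells. H2ac6 was the 1 gene higher in IR than in control, at 28.1, 43.6 and 36.8 CPM. H2ac4 was at 23.3, 2.33 and 2.94 CPM, H3c1 at 18.5, 17.2 and 21.8, and H4c14, the 1 gene lower in IR_HSO than in IR, at 17.9, 14.5 and 5.64.

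The members with a stem-loop were divided by the length of annotated transcript that follows it, at 200 bases. The short group had 25 members, among them H2ac24 (3 bases), H2ac18 (35), H4c8 (46) and H2ac8 (151). The long group had 16, among them H4c4 (770), H1f2 (840), H1f4 (1153), H2bc6 (1861) and H1f3 (4884), and in 22 members no stem-loop was found. Of these 22, 15 have fewer annotated bases after the stop codon than the motif is long, 13 of them none, so it could not be found there and they are no comparison group. In T cells the 25 short members, measured or not, summed to 391, 212 and 364 CPM in control, IR and IR_HSO. The 16 long ones summed to 701, 710.2 and 426. IR_HSO was 1.71 times IR (1.66 to 1.76) for the short and 0.601 times (0.588 to 0.613) for the long group. So IR was low for the short group and IR_HSO for the long one. By mean level in T cells, H1f4, H1f2 and H1f3 led the long group and the H2A genes H2ac24, H2ac8 and H2ac18 the short one. Class and transcript end thus overlap, and their parts were not told apart. The long group was not summed without its H1 genes. Without H2ac24 the ratio of the short group was 1.14, so H2ac24 carried most of it. Boundaries of 100 and 500 bases gave 1.78 and 1.57 for the short and 0.651 and 0.566 for the long group.

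Single members did not all follow their group. Of the 9 short members measured in T cells, 4 were higher and 1, H2ac20 (57 bases), lower in IR_HSO than in IR. Of the 11 long ones measured there, 5 were lower and 1, H3c7 (365 bases), higher. Among the 7 measured members without a stem-loop found, H2bc24 and H3c13 were higher and 4 lower. In NK cells the short group stood at 251, 166 and 445 CPM, with IR_HSO 2.69 times IR (2.48 to 2.92), and the long group at 877, 616 and 470.5, 0.764 times (0.722 to 0.807). In noncycling NK cells the ratios were 1.66 and 0.656. In cycling ones they were 4.59 and 1.36, so there the long group was higher too. In the B gate the ratios were 3.04 and 0.830. Over all cells of a gate, the short group was higher and the long group lower in IR_HSO in each of the 3 gates, which share the libraries and so are no independent repeats.

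**Figure D3:**
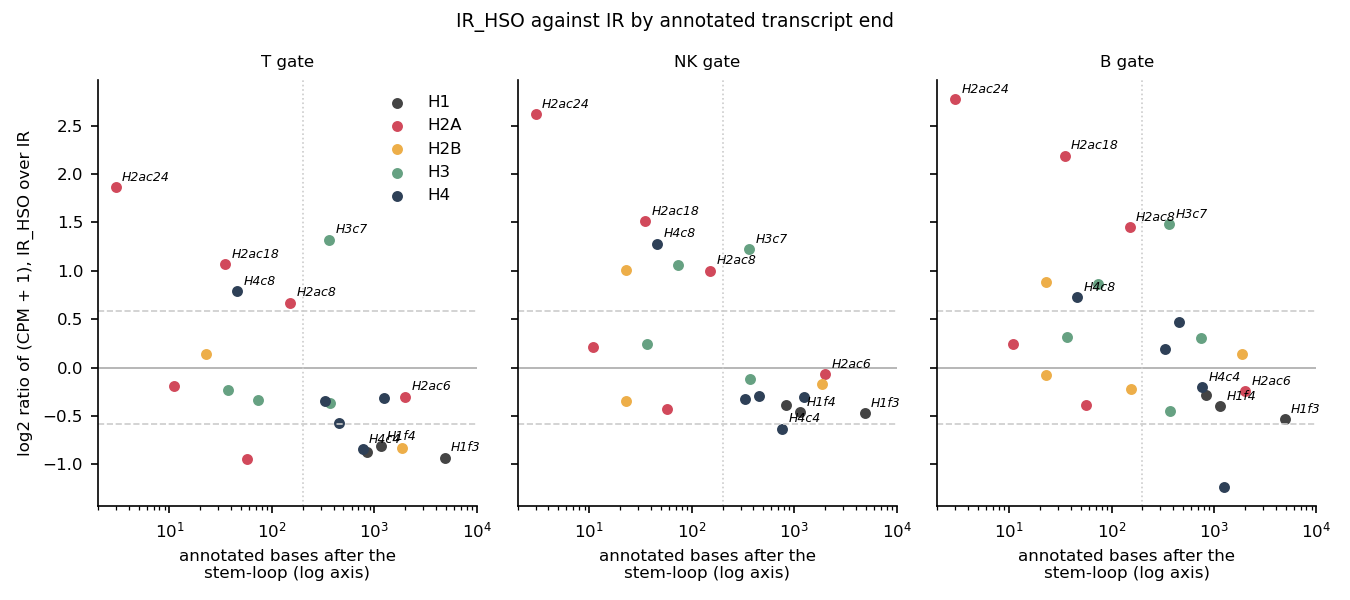
Ratio of IR_HSO to IR in the T, NK and B gates (log2 of CPM + 1, vertical axis) against the bases of annotated transcript after the stem-loop (log axis), 1 point per measured member with a stem-loop, coloured by class; dashed lines mark 1.5-fold and the dotted line 200 bases. In T cells H2ac24 lies at 3 bases and 1.86, H1f4 at 1153 bases and -0.81, and H2ac20 and H3c7 lie apart from their groups.

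Some RNAs that carry no poly(A) tail differed between the libraries, and others hardly did in T cells. The 18S ribosomal RNA gene Rn18s-rs5 stood at 28741, 10836 and 45812 CPM in T cells, at 33095, 14429 and 50097 in NK cells and at 26099, 5067 and 23124 in the B gate. Mir6236, which lies in ribosomal RNA, was at 865, 221 and 1581 CPM in T cells. IR was the low library for both, as for H2ac24. In T cells Scarna2, a small Cajal body RNA, stood at 5.28, 5.38 and 5.59 CPM, the vault RNA Vaultrc5 at 7.12, 5.99 and 7.19, and the Y RNA Rny3 at 2.49, 2.44 and 2.33, all close. Rn7sk, a small nuclear RNA, was at 7.16, 8.20 and 4.66 CPM there, and Malat1, a nuclear RNA without a usual tail, at 26867, 24247 and 24782. In NK cells both were highest in control and lowest in IR_HSO, Rn7sk at 7.03, 5.08 and 3.36 CPM and Malat1 at 35427, 29028 and 21012. The B gate had the same order, at 5.32, 3.05 and 0.981 and at 32618, 18087 and 17796. Rn7sk rested on few UMIs, 11, 26 and 15 in NK cells and 126, 17 and 4 in the B gate. Scarna2 and Rny3 were not close in the B gate. Scarna2 was at 3.55, 1.26 and 1.96 CPM (84, 7 and 8 UMIs) and Rny3 at 1.27, 2.33 and 0.245 (30, 13 and 1). The part of untailed RNA capture in the histone values was not tested. With ribosomal RNA and other abundant genes out of the denominator, the histone sum of IR_HSO against IR in T cells was 0.849.

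Much of the histone RNA sat in few cells. Cells in which members made up at least 1% of all UMIs made up 0.616% of control T cells (23 of 3731, exact interval 0.391 to 0.924), 0.682% of IR T cells (56 of 8212, 0.516 to 0.885) and 0.673% of IR_HSO T cells (47 of 6982, 0.495 to 0.894). These shares differed by less than counting error, and 20, 54 and 45 of these cells had Mki67 or Top2a. These cells held 29.1% of all histone UMIs of the gate in control, 13.6% in IR and 29.9% in IR_HSO. Histones stood at 18911, 13415 and 19665 CPM in them and at 936, 961 and 637 CPM in the other T cells. Without the cells that also passed the B gate, 15, 56 and 45 T cells were rich (0.470%, 0.694% and 0.653%), at 19083, 13415 and 19179 CPM. Rich cells were thus about as frequent in each library but held less histone RNA in IR, and the other cells held less in IR_HSO. Their median UMI numbers were 16669, 6348 and 7973, against 5475, 3580.0 and 3552 in the other cells, and doublets among them were not tested apart.

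The make-up of these cells differed as well. H2ac24 stood at 4061, 1287 and 8181 CPM in the rich T cells of control, IR and IR_HSO, highest in IR_HSO and lowest in IR. H1f4 was at 1511, 1484 and 886 CPM and H4c4 at 626, 607 and 237 there, lowest in IR_HSO. H1f5 had a higher level than H1f4 in these cells, at 4107, 2925 and 1883 CPM, falling from control to IR. H1f2 was at 499, 738 and 379 CPM there and H1f3 at 548, 821 and 493, both highest in IR. In the NK gate 1 control cell of 337, 8 IR cells of 1531 and 10 IR_HSO cells of 1046 (0.956%, 0.459 to 1.75) were rich, and they held 10.5%, 19.4% and 46.9% of the histone UMIs. The other NK cells stood at 1118, 744 and 579.5 CPM, lowest in IR_HSO. The 10 NK cells with the most histone UMIs in IR_HSO held 47.4% of them, with 35 to 463 UMIs each. In the B gate 30, 0 and 4 cells were rich, where 0 of 444 allows a share of up to 0.676%.

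**Figure D4:**
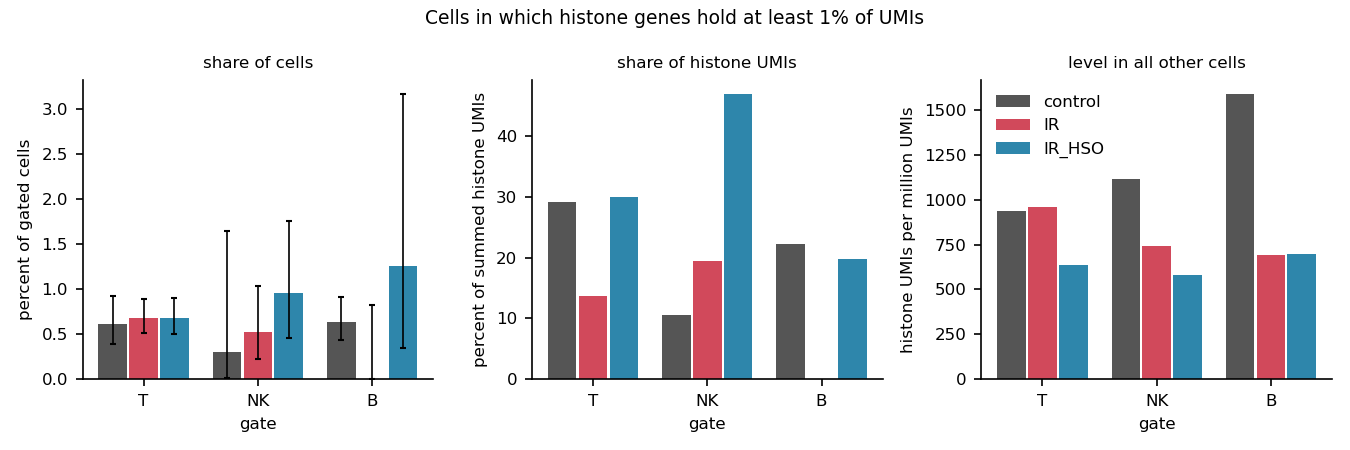
Cells in which members make up at least 1% of UMIs, by gate and library: their percent of cells with exact 95% intervals, the percent of histone UMIs they hold, and the histone level in all other cells (CPM). In the NK gate the share reaches 46.9% in IR_HSO, and in T cells it is lowest in IR at 13.6%.

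Outside these cells, histone RNA was widespread at a low level. After thinning each cell to 1000 UMIs, 49.8% of control T cells, 50.3% of IR T cells and 42.0% of IR_HSO T cells had at least 1 UMI of a member, and 89.5%, 82.0% and 78.1% without thinning. In NK cells the thinned shares were 65.8%, 46.3% and 35.9%. IR_HSO was lowest in both gates, and control stood apart as the highest in NK cells. Cells shallower than 1000 UMIs were left out, 15, 229 and 91 in the T gate and 7, 157 and 55 in the NK gate. At unequal depth, without thinning, 19.4% of control T cells and 6.16% of those of IR had H2ac24. No cell type that lacks these genes was at hand to give a background share.

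Cycling T cells carried less histone RNA in both irradiated libraries than in control, although more cells cycled in IR. Cells with Mki67 or Top2a were 338 of the T gate in control, 1121 in IR and 731 in IR_HSO, or 9.06%, 13.7% and 10.5%, and 3.07%, 6.29% and 3.63% after thinning. Their histone level was 4074, 2295 and 2533 CPM, so IR was 0.563 times control, and the levels were 3474, 2408 and 2606 without B-gate cells. Erythroid markers stood at 2653 CPM in the cycling T cells of control, 0.531 in IR and 0.838 in IR_HSO, and their part in the difference was not tested. In cycling T cells with Cd8a or Cd8b1 the histone levels were 4218, 2223 and 4217 CPM (132, 163 and 108 cells), so there only IR was low, and IR_HSO differed from control by less than counting error (0.961 to 1.04 times). Noncycling T cells stood at 810.3, 779.7 and 587 CPM, with IR 0.962 times control and IR_HSO 0.753 times IR. In the cycling cells of the whole T gate IR_HSO was 1.10 times IR (1.08 to 1.13). Cycling cells held 21.1% of the T cell UMIs in IR and 15.9% in IR_HSO. With IR_HSO weighted to the share of IR, its histone level was 0.907 times that of IR. Over the whole gate control was thus apart in cycling cells, and IR_HSO in noncycling ones. The level in cycling over that in noncycling cells was 5.03 in control, 2.94 in IR and 4.32 in IR_HSO. For H2A it was 12.5, 7.82 and 10.7, and for H1 3.32, 2.24 and 2.36.

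Sorting T cells by UMIs of 28 S phase genes gave the same order for cells in which such genes were abundant. After thinning, the T cells with 3 or more S phase UMIs made up 1.99%, 7.57% and 3.60% of the gate for control, IR and IR_HSO. They were 74, 604 and 248 cells, and their histone levels were 5757, 2598 and 3689.5 CPM. These groups were not formed without B-gate cells. Cells with none stood at 840.4, 859.8 and 636 CPM. IR had the most cells with abundant S phase RNA and the least histone RNA in them, and in cells without it IR_HSO was low. In NK cells with 3 or more the levels were 3167, 1657 and 3293 CPM, with IR again lowest. These were only 12, 99 and 41 cells, with 38, 164 and 135 histone UMIs.

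**Figure D5:**
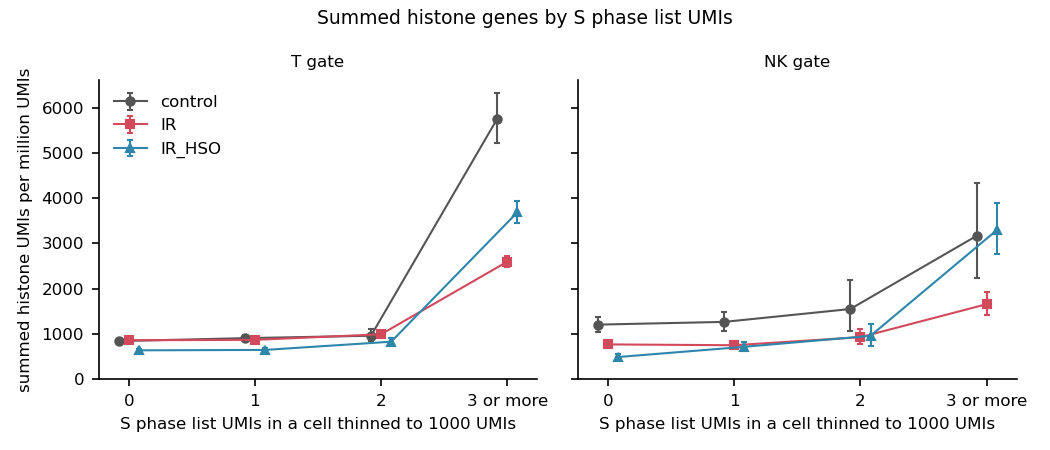
Histone level (CPM, vertical axis) in cells grouped by their UMIs of 28 S phase genes after thinning to 1000 UMIs, in T and NK gates of each library, with exact 95% intervals for counting error. In T cells with 3 or more such UMIs control lies at 5757 CPM, IR at 2598 and IR_HSO at 3689.5.

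Other genes of the histone supply line were counted in T cells by lists. Of all genes measured there, 9.84% were higher and 3.01% lower in IR than in control, and 5.39% higher and 4.26% lower in IR_HSO than in IR. Of 25 measured S phase and replication genes, 18 were higher and 0 lower in IR than in control, and 0 were higher and 15 lower in IR_HSO than in IR. Lig1, which joins DNA strands, stood at 21.5, 51.7 and 22.8 CPM, Tyms, a maker of thymidylate, at 14.2, 36.1 and 19.7, and Rrm2, a subunit of ribonucleotide reductase, at 13.5, 22.3 and 7.26. Pole, the catalytic subunit of a replicative polymerase, was at 3.58, 10.3 and 7.72 CPM, and Uhrf1, which helps copy DNA methylation, at 11.7, 26.6 and 11.2. Each was highest in IR, where the histone sum was 0.849 times control, or 1.02 times without B-gate cells. Of 15 G2 and M phase genes 7 were higher in IR than in control and all 15 lower in IR_HSO than in IR, with Top2a, which untangles DNA, at 55.5, 138 and 52.1 CPM and Cenpf, a kinetochore protein, at 23.6, 48.7 and 17.1. In NK cells 14 of 24 S phase genes were higher and 0 lower in IR than in control, and 0 were higher and 4 lower in IR_HSO than in IR, where the shares of all genes were 9.96% and 9.17%, then 5.85% and 5.22%.

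Of 20 measured genes that make or handle histone mRNA, 1 was higher and 0 lower in IR than in control, and 0 were higher and 1 lower in IR_HSO than in IR, near or below the shares of all genes. The higher one was E2f1, an S phase transcription factor, at 3.41, 10.6 and 4.73 CPM, and Slbp stood at 82.4, 118 and 89.8. Of 16 chaperones and import factors, 3 were higher in IR than in control, among them Chaf1a, a subunit of the assembly factor CAF-1, at 5.85, 13.0 and 7.72 CPM, and 2 were lower in IR_HSO than in IR, among them Asf1b, an H3 and H4 chaperone, at 11.6, 19.9 and 7.52. Of 9 measured variant histone genes, which are made outside S phase too, 3 were higher in IR than in control, where 9.84% of all genes were. H1f0, a linker histone of resting cells, was at 15.1, 29.1 and 45.2 CPM, highest in IR_HSO where H1f1 to H1f5 were lowest. H2aj was at 231, 402 and 406 CPM. All 10 p53 targets were higher in IR than in control and none differed past the fold between IR_HSO and IR, with Cdkn1a, which encodes the cycle inhibitor p21, at 1.70, 208 and 147 CPM and Phlda3 at 1.97, 102 and 78.2.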

How the data were processed

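Spleen cells of 3 libraries, 1 per group, were measured. Raw UMI counts were deposited by the authors as gene by barcode matrices. Per the file headers Cell Ranger 7.0.1 wrote them, and per the submitters' processing notes the build was GRCm39. The annotation and the treatment of reads that match several copies are not given in the sources used here. The libraries held 47298108, 50836313 and 45636807 UMIs. Barcodes with at least 500 UMIs and under 10% mitochondrial UMIs were used, doublets being left out only as an alternative by a Scrublet-type score, at 0.8% of cells per 1000 cells. Counts were summed per gate and library, and ratios carry exact conditional intervals of 2 Poisson counts. With 1 library per group no test was run. The computation was tested on simulated data.

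Members and lists were chosen with earlier results of these data known, as were the 1% limit and the 200-base boundary. Values in every library are given for the 10 members of highest mean CPM in T cells, the top 5 in NK and B gates and, per gate, the 2 highest and 2 lowest ratios of IR to control and of IR_HSO to IR. For other gene lists the 3 genes with the largest ratios in T cells served, or fewer. H1f1, H2ac20, H2bc24, H3c13, Slbp and other members named beside them were chosen after their values were seen. Transcript ends came from the longest coding transcript in GENCODE M21 (GRCm38), matched by gene ID, since no annotation of the authors' build was used. A marker of the B cell list and a narrower B gate are not reported here. Alternatives covered cell filters, gates, thinning, denominators, centring, pseudocounts and floors. Python 3.11.15, numpy 2.4.6, scipy 1.17.1, pandas 2.3.3, scikit-learn 1.9.0 and matplotlib 3.10.9 were used.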

Additional observations from a re-analysis of the deposited data

Results flagged for a closer look

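The histone sum of IR_HSO against IR differed in direction between cell gates. It was 0.815 in T cells and 1.16 in NK cells, and 0.815 in T cells and 1.25 in the B gate. The ratios lay on opposite sides of 1. The difference between gates was not tested, since each group has 1 library. Among cells without Mki67 or Top2a the NK ratio was 0.793, on the same side of 1 as the 0.753 of T cells, and the B gate was at 1.02.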

How the results depend on the processing

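Every alternative setting was run, and no paired analysis was possible because each group has 1 library and no replicate number, so no library could be left out. The boundaries of 100 and 500 bases and leaving out the 10 richest cells were chosen after seeing the data. Noncycling cells are those without Mki67 or Top2a. Values are ratios of the histone sum, in the order IR to control, IR_HSO to IR and IR_HSO to control. With a mitochondrial limit of 5%, they were 0.854, 0.836 and 0.713 in T cells, 0.737, 1.18 and 0.869 in NK cells and 0.346, 1.25 and 0.434 in the B gate. Noncycling cells of these gates then gave 0.969, 0.749 and 0.726, 0.641, 0.777 and 0.499, and 0.411, 1.02 and 0.419. Without cells that passed more than 1 gate, they were 1.02, 0.798 and 0.814 in T cells, 0.855, 1.12 and 0.953 in NK cells and 0.302, 1.20 and 0.362 in the B gate. For these gates the noncycling cells gave 1.04, 0.747 and 0.773, 0.655, 0.784 and 0.513, and 0.378, 1.08 and 0.409. Without the cells of highest doublet score, they were 0.857, 0.743 and 0.637 in T cells, 0.721, 0.829 and 0.597 in NK cells and 0.303, 1.21 and 0.365 in the B gate. Noncycling cells of these gates then gave 0.997, 0.758 and 0.755, 0.661, 0.791 and 0.523, and 0.391, 1.01 and 0.394. With every cell thinned to 1000 UMIs, they were 1.04, 0.759 and 0.791 in T cells, 0.637, 0.834 and 0.531 in NK cells and 0.444, 1.21 and 0.539 in the B gate. For these gates the noncycling cells gave 1.0, 0.752 and 0.753, 0.597, 0.707 and 0.422, and 0.441, 0.888 and 0.391. Here cycling was read after thinning, so these are not the noncycling cells of the other settings. Mki67 or Top2a was then found in 3.07% of control T cells, against 9.06% without thinning. With immunoglobulin, haemoglobin, mitochondrial, ribosomal and pancreatic genes out of the denominator, they were 0.803, 0.849 and 0.682 in T cells, 0.757, 1.25 and 0.945 in NK cells and 0.694, 1.32 and 0.914 in the B gate. Noncycling cells of these gates then gave 0.908, 0.779 and 0.708, 0.648, 0.865 and 0.560, and 0.859, 1.08 and 0.926. Centred on the median of all genes, they were 0.791, 0.795 and 0.631 in T cells, 0.754, 1.17 and 0.889 in NK cells and 0.718, 1.29 and 0.916 in the B gate. For these gates the noncycling cells gave 0.892, 0.729 and 0.652, 0.647, 0.809 and 0.525, and 0.891, 1.05 and 0.921. Without H1f4, they were 0.826, 0.892 and 0.737 in T cells, 0.813, 1.36 and 1.10 in NK cells and 0.360, 1.40 and 0.502 in the B gate. Noncycling cells of these gates then gave 0.962, 0.830 and 0.798, 0.672, 0.893 and 0.600, and 0.477, 1.12 and 0.534. Without the 10 cells richest in members, they were 1.01, 0.761 and 0.766 in T cells, 0.689, 0.820 and 0.564 in NK cells and 0.338, 1.03 and 0.347 in the B gate. For these gates the noncycling cells gave 0.962, 0.753 and 0.724, 0.695, 0.787 and 0.547, and 0.406, 0.994 and 0.404. With cycling cells read from a wider list, noncycling values were 0.978, 0.751 and 0.735 in T cells, 0.634, 0.798 and 0.506 in NK cells and 0.420, 0.991 and 0.416 in the B gate.

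The direction turned in T cells for IR against control (0.849 as reported) without cells of several gates, after thinning and without the richest cells, and in NK cells for IR_HSO against IR (1.16 as reported) under the doublet, thinning and richest-cell settings. It also turned for IR_HSO against control in NK cells without H1f4, for noncycling T cells between IR and control at a ratio near 1, and for noncycling B-gate cells between IR_HSO and IR (1.02 as reported). The IR_HSO to IR ratio in T cells stayed below 1 in all 8 settings. None of these left out the whole H1 class, which stood at 631 CPM in IR and 339.7 in IR_HSO. H2A, the only class higher in IR_HSO, stood at 163 and 306 CPM. Of 153 alternative values of the sums, 64 moved by less than the counting interval, 80 by more and 9 reversed. The cause was not tested. By class, H1 in T cells between IR and control was 1.14 without cells of several gates, 1.13 after thinning and 1.08 without the richest cells. Between IR_HSO and IR in NK cells H2B was 0.909 without doublet calls, 0.819 after thinning and 0.916 without the richest cells. H3 between IR and control in NK cells was 0.801 after thinning. In the B gate between IR and control, H2B was 1.03 with the reduced denominator and 1.06 centred, and H4 was 1.04 and 1.08.

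Of 660 alternative values of named members, 10 turned or reached 0. As log2 ratios these were H1f2 (0.09 with the reduced denominator and 0.15 centred), H2ac18 (0.00 thinned), H2ac6 (-0.14 thinned), H2bc6 (0.09 centred) and H3c3 (0.13 thinned), all in the B gate between IR and control, and H2ac4 in T cells between IR and control (0.07 thinned). For IR_HSO against IR they were H2ac8 (-0.01 without doublet calls) and H3c3 (-0.07 without doublet calls, -0.10 thinned) in NK cells.

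Counts of members past the fold also moved. The shares of all genes were not counted under these settings, so the counts have no background beside them. In T cells they were 8 (3 higher, 5 lower) without cells of several gates and 9 (4 and 5) after thinning for IR against control. For IR_HSO against IR they were 26 with every member of 1 UMI kept and 6 at 2-fold, and for IR_HSO against control 8 at a pseudocount of 5, 4 at 2-fold and 10 after thinning. In NK cells the floors of 1 CPM and 1 UMI gave 16 and 24, 18 and 24, and 29 and 34 for the 3 comparisons, and 2-fold gave 3 for IR against control and 7 for IR_HSO against control. After thinning, IR_HSO against IR in NK cells gave 6 higher and 9 lower. In the B gate IR against control gave 35 at 1 CPM, 39 at 1 UMI and 13 centred (4 higher, 9 lower). With the reduced denominator it gave 4 higher and 12 lower. IR_HSO against control gave 33 at 1 UMI, 12 centred (8 higher, 4 lower), and 10 higher and 6 lower with the reduced denominator.

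Shares of cells depend on depth. For control, IR and IR_HSO, a member was found at 2000 UMIs in 70.1%, 71.0% and 61.8% of T cells, 80.9%, 66.7% and 60.1% of NK cells and 85.9%, 63.4% and 58.7% of the B gate. Without thinning these were 89.5%, 82.0% and 78.1%, then 92.9%, 73.9% and 74.4%, then 95.2%, 89.0% and 86.0%. Mki67 or Top2a was found at 2000 UMIs in 4.58%, 9.08% and 6.29% of T cells, in 7.44% and 5.86% of NK cells of IR and IR_HSO, and in 4.33% and 6.62% of the B gate of control and IR. Without thinning it was found in 9.06%, 13.7% and 10.5% of T cells, 8.31%, 11.1% and 8.80% of NK cells, and 7.42%, 18.9% and 20.6% of the B gate. The small NK gate of control and the small B gates of the irradiated libraries limit what can be read from single members there.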

Other observations

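Cells that passed none of the T, NK and B gates had histone sums of 2244 CPM in control, 882 in IR and 741 in IR_HSO, highest in control. Barcodes left out for 10% or more mitochondrial UMIs had 1901, 1222 and 699 CPM over 357, 643 and 2102 barcodes, with the same order of the libraries.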
